A study of Mus musculus with 4 samples.

Results

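Accessible chromatin that was called in both Maf-deficient libraries and in neither control library, away from the ends of genes, comprised 768 regions of fetal γδ thymocytes, of 171490 merged regions in all. The assay was Omni-ATAC-seq, which tags open DNA with the Tn5 transposase, and a peak is a stretch where tagged reads pile up over the local background. Peaks of the 4 libraries were merged where they overlapped, and a region was kept when it was at least 200 bp wide, overlapped a peak of both knockout libraries and of no wild-type library, and lay more than 1 kb from both ends of every protein-coding gene. The regions were thus chosen by the peak calls of all 4 libraries, so the calls and their heights are given as a description and carry no test. The 2 wild-type libraries (WT 1 and WT 2) came from Maf+/+ Il7rCre fetuses and the 2 knockout libraries (KO 1 and KO 2) from Maf fl/fl Il7rCre fetuses, so both genotypes carried the Cre, which the Il7r gene drives in lymphoid precursors. All were of embryonic day 17 to 18 and backcrossed to C57BL/6 for 5 generations, and the sorted cells of a library came from pooled fetal thymi. The sort took immature γδ T cells that lacked CD4 and CD8, carried CD3ε, the γδ receptor and CD24, and had little CD45RB. Whether replicates stem from different litters is not stated, and differences between replicates may be technical. In such bulk samples, fewer cells of a type and less open chromatin per cell cannot be told apart.

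c-Maf, the product of Maf, is a basic leucine zipper transcription factor that binds DNA as a dimer at long palindromic elements related to AP-1 sites. In γδ thymocytes it is known for the program that leads to IL-17-producing cells. Open chromatin away from gene ends holds many enhancers, the distal elements where such factors act, together with silencers, insulators and internal promoters.

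Only a few of the regions lay at a place where a reference table gives sequence. Of the 744 regions on chromosomes that the table of RefSeq start windows covers (GRCm38.p6, 250 bases before to 50 after each annotated start), 16 overlapped such a window (2.15%, exact 95% interval 1.23% to 3.47%, counting error only), against 8 of 935 WT-only regions of the same kind (0.856%) and 4.26% of those called in all 4 libraries. None of these starts is a gene end used by the rule, which left out everything within 1 kb of one. In 10 of the windows, at least 100 of the bases before the start lay inside the region. The 5 stretches below are those of protein-coding genes that run up to the base before the start, and are shown because they are the regions whose letters can be read. They run 5′ to 3′ on the strand of the gene, and capitals mark a match to a searched motif, on both strands. For MAF factors the motifs were the long palindromic MAF recognition element and its part TGCTGA, and for AP-1 factors TGANTCA. For the TCF family they were CTTTGAT or else the related form CTTTGAA. For ETS factors the search used ACAGGAA and also the promoter form CCGGAAG. RUNX factors were given TGTGGTT, the E proteins were given CAGCTG and the GATA factors were given AGATAA. The long MAF element contains TGCTGA and overlaps the AP-1 motif.
Rara (chr11:98964668-98964871, plus strand): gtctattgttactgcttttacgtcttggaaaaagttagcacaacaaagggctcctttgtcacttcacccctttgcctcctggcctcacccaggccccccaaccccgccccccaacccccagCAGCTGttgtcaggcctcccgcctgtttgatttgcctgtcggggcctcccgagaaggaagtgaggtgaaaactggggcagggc
Mylk3 (chr8:85381042-85381258, minus strand): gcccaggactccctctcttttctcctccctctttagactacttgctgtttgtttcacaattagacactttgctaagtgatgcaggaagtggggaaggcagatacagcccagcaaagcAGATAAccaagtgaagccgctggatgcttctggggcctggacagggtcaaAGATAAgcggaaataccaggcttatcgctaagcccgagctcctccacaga
Usp2 (chr9:44084704-44084919, plus strand): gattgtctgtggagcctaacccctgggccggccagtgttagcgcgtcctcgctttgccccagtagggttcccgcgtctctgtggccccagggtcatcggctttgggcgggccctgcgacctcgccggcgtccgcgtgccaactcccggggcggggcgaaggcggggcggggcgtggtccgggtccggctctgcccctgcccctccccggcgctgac
Slc22a4 (chr11:54028105-54028244, minus strand): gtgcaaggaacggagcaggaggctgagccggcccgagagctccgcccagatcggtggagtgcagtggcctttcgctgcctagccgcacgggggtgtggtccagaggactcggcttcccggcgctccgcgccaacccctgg
Lzts2 (chr19:45017961-45018134, plus strand): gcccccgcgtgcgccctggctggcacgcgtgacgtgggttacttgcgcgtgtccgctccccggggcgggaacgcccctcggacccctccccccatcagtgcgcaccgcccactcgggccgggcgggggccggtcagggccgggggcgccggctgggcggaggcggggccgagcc
Rara encodes retinoic acid receptor α, Mylk3 a myosin light chain kinase, Usp2 a ubiquitin protease, Slc22a4 an organic cation transporter and Lzts2 a leucine zipper protein. The stretches of Slc22a4, Usp2 and Lzts2 held 13, 24 and 25 CG dinucleotides and were 70.7%, 74.1% and 81.6% G and C. These were above the upper quartile of 61.2% over the 250 bases before all 32851 starts of the table. Rara (58.3%), Mylk3 (51.2%) and the stretches of the 10 windows that are not printed (43.0% to 60.6%) were below it. Each stretch covers only the part of the 250 bases that lay inside the region. Rara had 1 match to CAGCTG, which 11.0% of all windows hold in the same bases, and Mylk3 had 2 matches to AGATAA, which 8.56% hold. None of the motifs named above was found in the other 3 stretches printed here. The short SOX motif ATTGT, which the plan also held, was not marked. The Rara and Usp2 stretches hold it as printed, and the Mylk3 stretch holds it on the opposite strand. Among the non-coding starts, that of Gm12708 held 1 match each to TGCTGA (in 3942 of the 32851 windows) and CTTTGAA (3.01%), and that of Gm41608 held 1 to CTTTGAT (1.53%). At Rara the summit pileup, the number of reads stacked at the highest point, was 18 in KO 1 and 26 in KO 2. At Mylk3 it was 6 and 12, at Usp2 10 and 9, at Slc22a4 10 and 14, and at Lzts2 8 and 12. All 5 were below the median of regions called in all 4 libraries, 26 in KO 1 and 31 in KO 2.

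The region at rank 3 lay inside a microRNA cluster, where regions are ranked by −log10 q as a percentile within each KO library, taking the lower of the 2. MicroRNAs are short RNAs that guide repression of messenger RNAs through their seed, bases 2 to 8, and the miR-200 family is known for repressing the Zeb factors. The region, at 156055307 to 156055517 on chromosome 4 and 4.49 kb from Ttll10, was 164 bp from the Mir200b hairpin, 322 bp from Mir200a and 1320 bp from Mir429. Its summit pileup was 24 in KO 1 and 27 in KO 2, and the nearest WT peak was 3.88 kb away. The mature sequences from RefSeq follow, with the seed in capitals.
miR-200b-3p: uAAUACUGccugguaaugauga
miR-429-3p: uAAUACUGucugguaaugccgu
miR-200a-3p: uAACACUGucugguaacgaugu
The first and second of these share the seed AAUACUG, and miR-200a-3p has AACACUG. Another region, at 114852011 to 114852236 on chromosome 5, overlapped the Mir6240 hairpin, and one at 88122365 to 88122721 on chromosome 4 stood 240 bp from Mir491. In all, 3 of 744 regions (0.403%) lay within 2 kb of a hairpin, against 0.428% of WT-only regions and 0.363% of regions called in all 4 libraries, both within the KO-only interval of 0.0832% to 1.17%. RNA was not analysed here.

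The 768 regions were 1.38% of the 55612 regions of the same width and distance called in at least 2 libraries. WT-only regions of the same kind numbered 960 (1.73%), and 45308 (81.5%) were called in all 4 libraries. Pairs of 1 WT and 1 KO library set the scale for both counts. WT 2 and KO 2 alone shared 1019 such regions (1.83%) and WT 2 and KO 1 alone 687 (1.24%), whereas WT 1 shared 104 (0.187%) with KO 2 and 74 (0.133%) with KO 1. The KO-only count thus lay between those of the pairs that include WT 2, and no test was made, since 2 libraries against 2 cannot reach an exact p below 0.333. Without the width rule, 5311 regions were KO-only and 3542 WT-only anywhere in the genome, so the order of the genotypes turned once 200 bp was asked for.

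**Figure D1:**
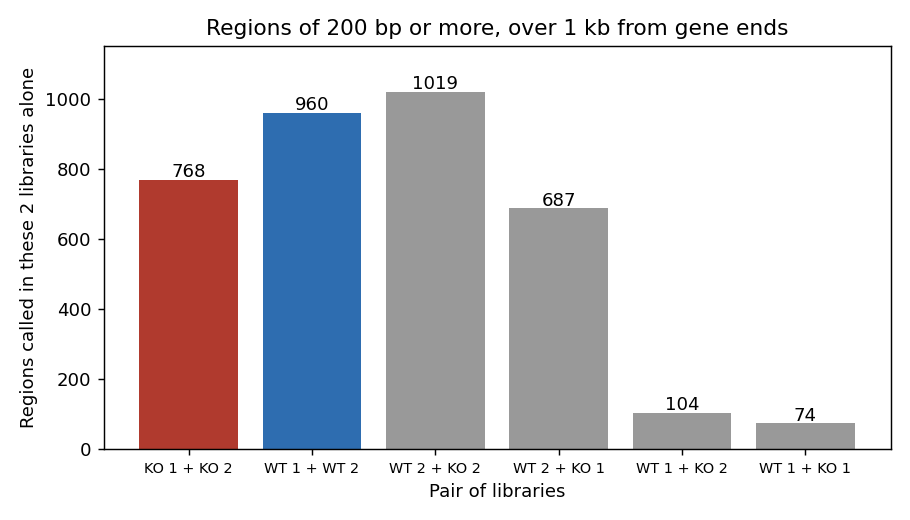
Bars give the number of regions of at least 200 bp, over 1 kb from gene ends, that were called in exactly the 2 libraries named on the horizontal axis. The KO pair (768) lies between the mixed pairs WT 2 with KO 2 (1019) and WT 2 with KO 1 (687), and the pairs of WT 1 with a KO library lie at 104 and 74.

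The libraries also differed in peak number, background and smallest called summit, and whether this bears on the counts above was not tested. The lists held 102718 and 132179 peaks in WT 1 and WT 2, and 130935 and 120141 in KO 1 and KO 2 on chromosomes 1 to 19 and X. The background pileup was 1.57 reads in WT 1, 1.38 in WT 2, 0.877 in KO 1 and 0.758 in KO 2, lower in both KO than in both WT libraries, and its part in the KO-only calls was not tested. At that background the smallest summit that was called stood at 7 reads in WT 1, 6 in WT 2 and 5 in each KO library, or 4.46, 4.35, 5.70 and 6.60 times the background. All 18 T cell identity genes, such as Cd3e and Lck, had in every library a peak no more than 1 kb from an end. Conventional αβ thymocyte genes had one at 14 of 16 in every library. The share over all protein-coding genes was not counted, so these numbers do not tell which cells were present. Genes of other cells had such peaks too, 7 or 8 of 14 B cell genes, 6 to 8 of 16 myeloid genes, 6 to 8 of 12 erythroid genes and 8 or 9 of 18 genes of thymic epithelium, stroma and endothelium, with overlapping numbers in the genotypes. Natural killer and innate lymphoid genes had them at 10 of 14 in both WT libraries and at 11 of 14 in both KO libraries, and the part of this in the KO-only calls was not tested.

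The KO-only regions were shallow. Their median summit pileup was 9 reads in KO 1 (5 to 45) and 9 in KO 2 (5 to 57), whereas regions of this kind called in all 4 libraries had a median of 26 and 31 in the same libraries. A summit of at least 20 reads was reached by 19 regions (2.47%) in KO 1 and by 34 (4.43%) in KO 2, and at least 10 in both libraries by 220 (28.6%). The deposited −log10 q, the evidence for a peak within its own library, had a median of 4.18 in KO 1 (1.02 to 50.9) and 5.51 in KO 2 (1.14 to 70.2). Ranked within the library, where 100 is the highest −log10 q, the median region stood at the 27.8th percentile in KO 1 and the 22.5th in KO 2. Both KO summits were at or above the library median in 16 regions (2.08%), while 206 of the 960 WT-only regions (21.5%) had both WT summits there. WT-only regions had a median pileup of 13 in WT 1 and 22 in WT 2, in libraries with a higher background. The deposited fold, the ratio of summit to local background, had a median of 4.80 in KO 1 and 5.12 in KO 2 for KO-only regions. For WT-only regions it was 4.67 in WT 1 and 7.41 in WT 2.

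**Figure D2:**
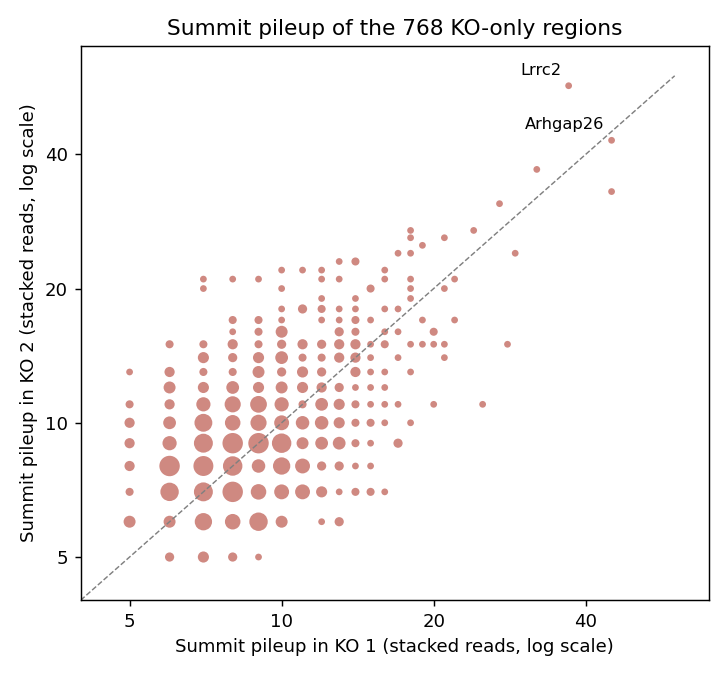
Each point is a summit pileup in KO 1 (horizontal, stacked reads, log scale) and KO 2 (vertical, stacked reads, log scale) shared by KO-only regions, with a larger point for more regions, and the dashed line marks equal pileups. Most regions lie near 9 reads in both libraries, and the labelled regions are those within Lrrc2 (37 and 57) and Arhgap26 (45 and 43).

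A region had to hold peaks of both KO libraries, which limits how far apart their summits can lie. The summits of KO 1 and KO 2 were 49 bp apart in the median, within 50 bp in 393 regions (51.2%) and within 100 bp in 616 (80.2%). The same shares were 70.4% and 92.0% for WT-only regions, with a median of 31 bp. Across the 768 regions, the −log10 q of the libraries had a Spearman correlation of 0.272 and a Pearson correlation of 0.323 on the log10 scale, given as a description over regions that share libraries and a lower limit on −log10 q. Each KO library had exactly 1 peak in 748 of the regions. Width ran from 200 to 769 bp with a median of 234 bp, and 656 regions (85.4%) were under 300 bp, against 49.1% of those called in every library. The rule met the regions at a steep part of the width distribution, with 186 KO-only regions away from gene ends at 190 to under 200 bp and 144 at 200 to under 210 bp. At the distance limit, 4 KO-only regions stood 0.9 to 1 kb from a gene end and 4 over 1 to 1.1 kb, the closest of these inside Tuba8 at 1036 bp.

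Some of the regions lay close to a peak of the controls, and most lay over 1 kb from one. The nearest WT peak was 2.51 kb away in the median, and within 1 kb for 244 regions (31.8%), within 500 bp for 160 (20.8%) and within 100 bp for 25 (3.26%). For WT-only regions the corresponding median to a KO peak was 2.54 kb, and 28.4%, 16.7% and 1.67% lay within those distances. A WT peak lay within 10 kb of 631 KO-only regions (82.2%), and the most isolated region was 673 kb from one.

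**Figure D3:**
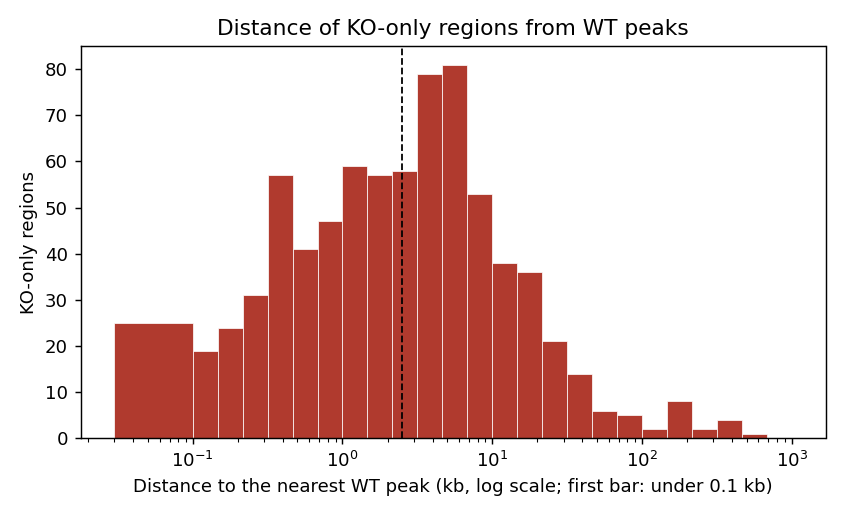
The histogram counts KO-only regions (vertical axis) by distance to the nearest WT peak in kb on a log scale, with the first bar holding the 25 regions under 0.1 kb and the dashed line at the median of 2.51 kb. Regions spread from the flank of WT peaks to isolated sites beyond 100 kb.

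By position, 469 of the 768 regions (61.1%, exact 95% interval 57.5% to 64.5%) lay inside a protein-coding gene, compared with 59.1% of WT-only regions and 56.9% of those in all 4 libraries. The intervals of the KO-only and WT-only shares overlapped, and the table used here gives gene bodies without exons, so exon and intron positions are not stated. The genes that held them had a median length of 109 kb, against 103 kb for WT-only and 92.8 kb for all-library regions. The regions outside genes stood a median of 34.8 kb from the nearest gene, while the distances were 23.1 kb for WT-only regions and 21.9 kb for those called in all 4. A gene farther than 100 kb was found for 72 regions (9.38%), and the most remote was 1270 kb from Cdh11. A lncRNA gene was overlapped by 88 regions (11.5%) and a pseudogene by 9 (1.17%), against 11.6% and 0.938% of WT-only regions. Over the chromosomes, the KO-only share ran from 1.07% on chromosome 11 to 1.77% on chromosome 15, followed by 1.68% on chromosome 8.

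The 2 regions ranked highest by that percentile were at 85.2 and 81.9, and the next at 69.3. The first lay within Lrrc2 at 110982561 to 110982940 on chromosome 9, with a summit pileup of 37 in KO 1 and 57 in KO 2, summits 6 bp apart, and the nearest WT peak 7.96 kb away. The second was within Arhgap26, which encodes a GTPase-activating protein, at 39185655 to 39186056 on chromosome 18, with 45 and 43 reads, and had its nearest WT peak at 14.5 kb. Both were in the top 25% of peaks of both KO libraries, and the region at the miR-200 cluster followed. Next came a region 15.1 kb from Clec3a, a C-type lectin of cartilage, at 114402696 to 114402917 on chromosome 8, with 19 and 25 reads.

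The gene nearest to the region ranked sixth, Apc, a scaffold that holds β-catenin in check, was 101 kb away. Regions within Ptpn21, a tyrosine phosphatase, and Camkmt, a calmodulin lysine methyltransferase, had 15 and 20 reads and 14 and 18 reads. Themis, a signalling protein of thymocyte selection, had one 4.54 kb outside the gene at 28888357 to 28888578 on chromosome 10, with 13 and 17 reads, summits 2 bp apart and the nearest WT peak 24.4 kb away. A region within Kat2b, a histone acetyltransferase, had 19 and 15 reads. Others of the top 25 lay within Mageb18, Cdr2, Pecam1, Ptpro, Ms4a4a, Fggy, 2610301B20Rik and Dapk1, or nearest to Utrn, Tsc22d1, Tnks1bp1, Elavl2, Gm6460, Mrgpra2a and 4933402N22Rik. Pileups among these 15 ran from 12 to 17 reads in KO 1 and from 14 to 23 in KO 2. The one nearest to Utrn, a paralog of dystrophin, was 196 kb from any WT peak, whereas the one within Pecam1, an adhesion molecule of endothelium and leukocytes, was 172 bp from one.

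Genes of the type 17 program had KO-only regions at 4 of the 29 genes matched in the gene table. Each region was given to its nearest gene body, up to 100 kb away, and 1.35% of the 51496 regions so assigned were KO-only and 1.74% WT-only. Among all 21631 protein-coding genes, 643 had a KO-only region, and 11999 had any region assigned. The list had 7 KO-only and 13 WT-only regions among 276 (2.54% and 4.71%). Sox5, an HMG-box factor, held a region with 7 reads in KO 1 and 8 in KO 2 and another with 8 and 7. Zbtb16, which encodes the innate-like T cell factor PLZF, held one of 375 bp at 48805710 to 48806084 on chromosome 9 with 12 and 19 reads, and one with 7 and 8. Rora, a nuclear receptor related to RORγt, held one with 11 and 8 reads, 226 bp from a WT peak, and one with 10 and 14. The seventh was the region next to Maf itself. None of the regions at Sox5, Zbtb16 and Rora reached a −log10 q of 5 in both KO libraries. These 3 genes, named for their KO-only regions, had 0 WT-only regions of this kind among 44, 31 and 41 regions. Over all assigned regions 1.74% were WT-only, and Maf had 1 WT-only region among 9.

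The type 1 and receptor response lists held 2 and 3 KO-only regions, beside 1.35% over all assigned regions. The type 1 program of interferon-γ-producing cells had 2 KO-only regions among 132 (1.52%), 4.58 kb from the chemokine receptor gene Cxcr3 (9 and 10 reads) and within Stat4, the IL-12 signalling factor (7 and 7 reads). Genes that respond to T cell receptor signals had 3 among 99 (3.03%). The one 5.41 kb from Egr1, an immediate early zinc finger factor, had 32 and 37 reads with both summits at the same base, over a local background of 8.77 and 10.4 reads, and a WT peak 82 bp away. That within Nr4a1, an orphan nuclear receptor induced by the receptor, had 27 and 31 reads over a background of 8.70 and 11.7. The one assigned to Dusp6, a phosphatase of ERK, was 93.1 kb from the gene and had 11 and 9 reads. High pileups at Egr1 and Nr4a1 thus stood on a high local background, and their −log10 q was 7.10 and 8.13 at Egr1 and 4.51 and 3.96 at Nr4a1.

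The immature thymocyte and TCF1 module had 6 KO-only regions among 402 (1.49%) and 7 WT-only, close to the shares over all genes. Runx1 had 2 regions, one inside the gene with 12 and 13 reads and one 28.3 kb outside with 6 and 12. Lef1, which encodes a factor related to TCF1, held one at 131196030 to 131196231 on chromosome 3 with 13 and 15 reads and summits 10 bp apart. Ikzf2, which encodes Helios, held one with 8 and 7, Bcl11a had one 12.4 kb away with 7 and 9, and Myb one 43.3 kb away with 10 and 9. None of these 6 reached a −log10 q of 5 in both libraries. Published c-Maf target genes had 3 among 179 (1.68%), the pair within Sox5 and one 9.43 kb from the checkpoint receptor gene Ctla4 with 8 and 11 reads. The Ctla4 region was 182 bp from a WT peak, and that gene also had 2 WT-only regions. The list of basic leucine zipper factors related to c-Maf (MAF, CNC and AP-1 families) had the region next to Maf alone among 146 (0.685%).

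Lists of genes that mark other cells held 0 to 2 of the regions each, beside the same 1.35%. The lists of B cell, myeloid, erythroid, natural killer and innate lymphoid, T cell identity and housekeeping genes had 0 KO-only regions among 40, 59, 18, 66, 171 and 44 regions. The conventional αβ thymocyte list had the Themis region alone among 98 (1.02%), and the stromal list had 2 among 60 (3.33%), both at Pecam1, where 2 WT-only regions were also found. Long neural genes had 2 among 84 (2.38%), within Cdh13 (13 and 11 reads) and Ctnnd2 (8 and 16 reads). Over all 15 lists, 24 of 1735 regions (1.38%) were KO-only, beside 1.35% of all 51496 regions assigned to a gene.

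**Figure D4:**
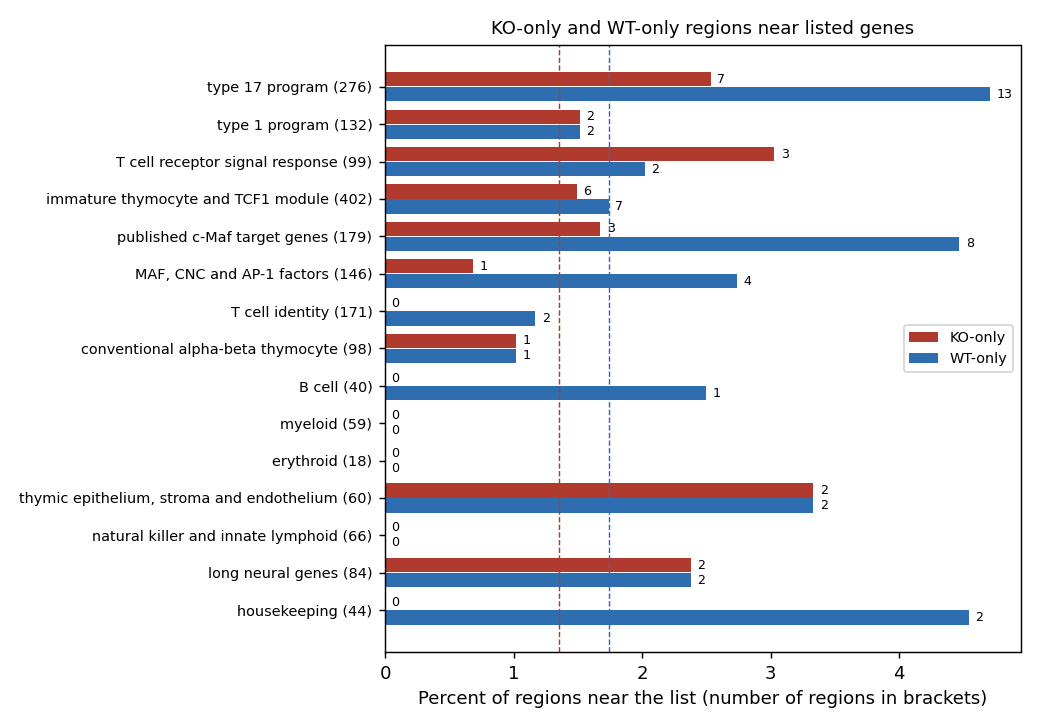
Bars give the percent of regions of this kind near the genes of each list that were KO-only (red) or WT-only (blue), with the number of such regions at the bar end and all regions of the list in brackets. Dashed lines mark 1.35% and 1.74%, the KO-only and WT-only shares near all protein-coding genes, and most lists rest on 0 to 3 KO-only regions.

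At a radius of 1 Mb, though not nearer by, KO-only regions were more numerous around the deleted gene than around any other. Within 500 kb of Maf, 1 of 46 regions was KO-only (2.17%) and 2 were WT-only (4.35%). Within 1 Mb of Maf, which lies at 115703253 to 115706894 on chromosome 8, 8 of 115 regions were KO-only (6.96%) and 2 WT-only (1.74%). Of the 21631 protein-coding genes 1, Maf itself, had 8 or more KO-only regions within 1 Mb, and the neighbouring gene Wwox followed with 7, most of them the same regions. The radius of 1 Mb was chosen after the values were seen, and the same distance around another gene held up to 17 WT-only regions. One of the 8 began 2.18 kb from Maf, at 115709069 to 115709732, was 664 bp wide and had 10 reads in KO 1 and 16 in KO 2. Which bases loxP sites flank is not stated, so the place of this region relative to the deletion cannot be told. Wwox, which encodes a WW-domain oxidoreductase, had 5 KO-only and 2 WT-only regions among 69, more KO-only regions than any other gene. Those regions stood 566 to 780 kb from Maf and had 5 to 9 reads in KO 1 and 8 to 16 in KO 2. The other 2, nearest to Dynlrb2 and Cdyl2, were 734 and 915 kb beyond Maf. With a −log10 q of at least 5 in both KO libraries 3 of the 8 remained, and with at least 10 reads in both 1 did, the region next to Maf. Without KO 2 the stretch held 5 regions, and without WT 2, which left 4038 KO-only regions in the genome, it held 18. In the rest of chromosome 8, more than 2 Mb from Maf, 35 of 2422 regions were KO-only (1.45%).

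**Figure D5:**
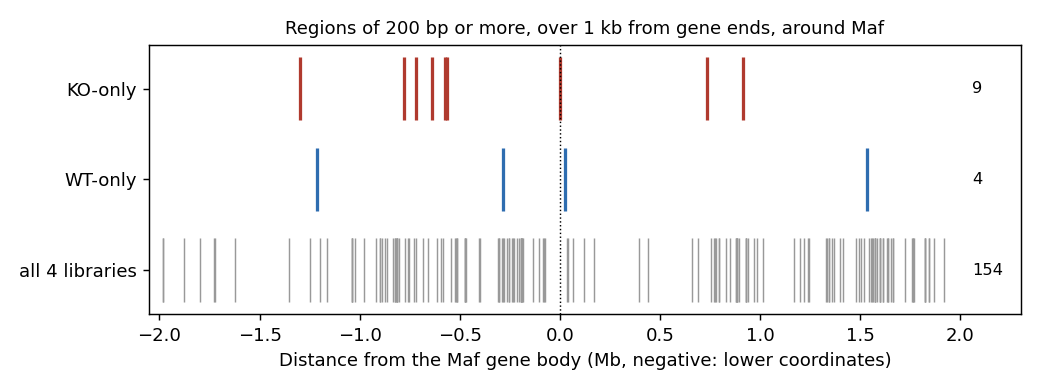
Vertical lines mark regions of this kind within 2 Mb of the Maf gene body by distance in Mb (horizontal axis), in rows for regions called in all 4 libraries (154), WT-only (4) and KO-only (9). Of the KO-only regions, 5 lie between 0.5 and 1 Mb and 1 beyond 1 Mb on the low-coordinate side, 1 is next to Maf and 2 are on the far side.

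The regions otherwise rarely came in groups. They were assigned to 643 genes, of which 597 had 1 region, 41 had 2, 4 had 3, and Wwox had 5. The genes with 3 were Lpp, a LIM-domain protein of focal adhesions, Sik3, a salt-inducible kinase, Klhl2, a cullin adaptor, and Carmil1, a regulator of actin capping. These 4, named for their KO-only regions, had 0 WT-only regions among 40, 24, 12 and 9 regions. Over all assigned regions 1.74% were WT-only, so few would be looked for among so few regions. Within 50 kb of each other stood 65 of the regions, in 28 groups of 2 and 3 groups of 3. The tightest group was in Sik3, where 3 regions spanned 2.15 kb from 46134430 to 46136580 on chromosome 9, with 16, 13 and 14 reads in KO 1 and 15, 14 and 13 in KO 2 over a local background of 3.22 to 3.27 and 3.97 to 3.99. That group lay 386 to 593 bp from WT peaks. In Carmil1, 3 regions spanned 27.9 kb with 7 to 10 reads in KO 1 and 5 to 8 in KO 2, and in Klhl2 3 spanned 52.6 kb with 7 to 11 and 6 to 8. Groups of 2 within 3.29 kb in Usp2, which includes the internal start shown above, and within 4.12 kb in Frem2 followed. By windows of 1 Mb, the fullest was 11 to 12 Mb of chromosome 5, with 5 KO-only regions of 34 and 0 WT-only ones, nearest to Speer1, Gm6460 and 4933402N22Rik, while 5 windows held 5 WT-only regions. Its regions had 7 to 25 reads in KO 1 and 6 to 23 in KO 2, and 4 of the 5 lay within 500 bp of a WT peak.

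The widest regions had from 7 to 29 reads in KO 1. A region of 769 bp 5.71 kb from Trappc6b, a subunit of a vesicle tethering complex, had 29 and 24 reads with summits 578 bp apart, so the KO libraries peaked at different places in it. One of 767 bp within Stxbp3, a syntaxin-binding protein, had 9 and 10 reads with summits 7 bp apart. The region next to Maf was the third widest. The fourth, 643 bp wide and assigned to no gene within 100 kb, had 28 and 15 reads, and the fifth, within Tlcd4, had 7 and 9.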

How the data were processed

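Omni-ATAC-seq peaks of 4 libraries were used, 2 per genotype. Per the submitters' processing notes, MACS2 2.1.1, Bowtie2 2.3.4.1, deepTools 3.1.2, bedtools, Picard, Trim Galore and cutadapt were used with mm10 (GRCm38). Their settings are not given here. Each deposited list held peaks of 1 library, with a whole-number score (10 times the −log10 q without decimals), a fold (ratio of summit to local background), and the −log10 p and −log10 q of the summit, all the authors' own values within a library. The lists end at a q of 0.1. Read totals were not used.

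Peaks on chromosomes 1 to 19 and X (99.6% to 99.7% of each list) were merged where they shared 1 bp. The summit pileup and local background were solved for each peak out of its deposited fold and −log10 p under the Poisson model of MACS2, with a pseudocount of 1, for 98.9% to 99.7% of peaks and for all KO-only regions, and the computation was tested on simulated data. Whether a stacked read is a fragment or a cut end is not stated. Genes, start windows and microRNAs came from RefSeq tables of GRCm38.p6, which hold no strand or exons for gene bodies, and the tables of start windows and microRNAs hold no entries for chromosome 18. Of 267 listed genes 266 matched. Positions are 1-based. The genome sequence was not used here, so the planned motif search covered only start windows. Its SOX motif ATTGT is not among the motifs reported. Regions, lists and comparisons were chosen with earlier results of these data known. Named regions were the 25 highest by the lower KO percentile, those at listed genes, genes with at least 3, the 5 widest and the 5 tightest groups. Those at listed genes over 100 kb away were not assigned. One of the highest regions is not reported here. Intervals are exact Clopper-Pearson 95% and cover counting error only. Python 3.11.15, numpy 2.4.6, pandas 2.3.3 and scipy 1.17.1 were used. Alternatives varied peak cutoffs, overlap, width, distance, merging, chromosomes and the libraries included.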

Additional observations from a re-analysis of the deposited data

Results flagged for a closer look

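Outside the chromosomes used above, on Y, M and unplaced sequences, 4 regions of at least 200 bp were KO-only and 2 were WT-only, among 169 called in at least 2 libraries. They are listed because these sequences entered no comparison and the KO-only number was above the WT-only one.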

How the results depend on the processing

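The number of KO-only regions away from gene ends followed the rule closely. From 768 it moved to 488 with at least 0.5 of the region covered in both KO libraries, 214 with a −log10 q of at least 5 in both KO libraries, 4921 with no minimum width, 112 with a minimum of 300 bp and 17 with 400 bp. It was 220 with a pileup of at least 10 reads in both KO libraries, a setting chosen after seeing the data. Leaving out 1 library gave 516 to 4038, the highest without WT 2, and the cause was not tested. The number was 1048 without WT 1, 607 without KO 1 and 516 without KO 2. Of the 607 and the 516, 198 and 114 had exactly the coordinates of one of the 768. Leaving out peaks redraws the edges of merged regions, so a site whose edges moved is not in these numbers. With a −log10 q of at least 5 in all libraries there were 1092, of which 211 had exactly the coordinates of one of the 768. With the same number of peaks in each library there were 960, of which 348 had such unchanged coordinates. Where both were counted, WT-only regions of the same kind outnumbered KO-only ones except with no minimum width (3185 against 4921), with a −log10 q of at least 5 in all libraries (954 against 1092) and without WT 2 (309 against 4038). The share inside genes, 61.1%, became 55.2% with a −log10 q of at least 5 in all libraries, 57.5% with the same number of peaks, 56.4% with no minimum width and 66.1% with a minimum of 300 bp, and ran from 56.7% to 61.9% with 1 library left out. Each list rests on at most 7 regions. Of 19 settings, 12 moved the type 1 count and 10 the stromal count by over 1.5 times, and each other list count moved that far, or away from 0, in 3 to 9. No paired analysis was possible because the results come from no test, since the calls themselves chose the regions. The smallest summit called at the background was 7 reads in WT 1 and 6 in WT 2, so a lower WT summit would be missing from these lists.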
